A study of Mus musculus with 6 samples.

Results

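The receptors, substrates and adaptors through which a cell senses IGF-1 and insulin were followed in mouse multiple myeloma cells, with 1 binding protein and IGF-1 itself. The members were the genes Igf1r, Igf2r, Insr, Irs1, Irs2, Grb10, Grb2, Shc1, Igfbp4 and Igf1, chosen by symbol. They comprised 10 of 12393 named genes and, taken as every probe set annotated with 1 of these symbols, 24 of 22690 probe sets. A probe set is a group of oligonucleotides on the array that together give 1 signal for a transcript. Both groups are described as malignant plasma cells from bone marrow, held for 12 h in medium lacking serum. Transcripts of neutrophils and macrophages were also bright on every array, as given below with the cell type markers. The share of plasma cells in the samples was not tested. The 3 control arrays had no IGF-1 and the 3 IGF-1 arrays had 100 ng/ml. Neither the mouse strain, the myeloma line nor the origin of the replicates is given in the sources used here, so the p-values reflect how far these samples differ from each other, and that variation may be only technical.

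IGF-1 binds the receptor tyrosine kinase encoded by Igf1r, which resembles the insulin receptor encoded by Insr. The activated receptors phosphorylate the docking proteins IRS1 and IRS2, which recruit PI3 kinase and so activate AKT, while SHC1 and GRB2 lead to RAS and the ERK kinases. IGF-1 is a growth and survival factor for myeloma cells. The comparison asks whether the cells altered the transcripts of this receiving machinery when its ligand was present.

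The transcript of the IGF-1 receptor fell with IGF-1, and it was the 1 member to pass the test. Of 10 tested member probe sets 1 passed, beside 15.1% of all tested probe sets, so the count was not above that background. The mean signal of Igf1r was about 1.5-fold lower in the treated samples. With arrays scaled to spiked hybridization controls in place of the deposited scaling, the difference shrank from -0.58 to -0.25 on the log2 scale and did not pass. On that scale 4 other member probe sets passed as higher, where 31.6% of all tested probe sets did. The transcripts of Insr, Igf2r, the adaptors Grb2 and Shc1 and the binding protein Igfbp4 did not pass in either direction on the deposited scale. Transcripts of Irs1, Irs2, Grb10 and Igf1 were too dim to enter the main test.

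Because Igf1r carried the change, the stretch directly before its annotated start is shown. It lies on the + strand at chr7:67952007-67952256 of GRCm38.p6 (RefSeq), directly before the gene, which spans 67952257 to 68233668. Capitals mark GC boxes, the letters GGGCGG, a motif bound by SP1-type factors.

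Igf1r: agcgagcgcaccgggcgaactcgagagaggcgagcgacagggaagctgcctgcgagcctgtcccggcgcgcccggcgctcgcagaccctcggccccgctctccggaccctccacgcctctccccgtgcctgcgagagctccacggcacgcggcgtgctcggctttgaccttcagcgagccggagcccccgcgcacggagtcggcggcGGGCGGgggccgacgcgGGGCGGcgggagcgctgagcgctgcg

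The 250 bases were 77.6% G or C, against a median of 52.4% over 32851 such windows of all genes. They held 2 GC boxes, which begin 43 and 26 bases before the start. Searched on both strands (GGGCGG or CCGCCC), the motif was present in 32.7% of all windows and in 6 of the 12 windows of members, which covered 9 of the 10 genes. The core forkhead site, the letters GTAAACA or their reverse complement TGTTTAC, was in 0 of those 12 windows and in 3.17% of all windows. A match is a description of these letters, and its absence says nothing about a factor acting elsewhere.

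Signals are linear MAS5 values in arbitrary units, scaled to the same trimmed mean on every array. Signals of different probe sets do not rank transcripts, so no level is ranked between them. Differences are IGF-1 minus control on the log2(signal + 15.57) scale, on which a change of a dim probe set looks smaller than it is. Probe sets with a mean signal above 53.61, the median, were tested. Of the 24 member probe sets, 10 passed this filter, from 6 genes, and 14 did not. Of those 10, 1 was lower and 0 were higher at an adjusted p under 0.05 (limma), where 15.1% of all tested probe sets passed, 8.28% as lower and 6.82% as higher. By sign, 7 of the 10 were higher and 3 lower. Their median difference was 0.12, beside -0.01 for all tested probe sets.

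**Figure D1:**
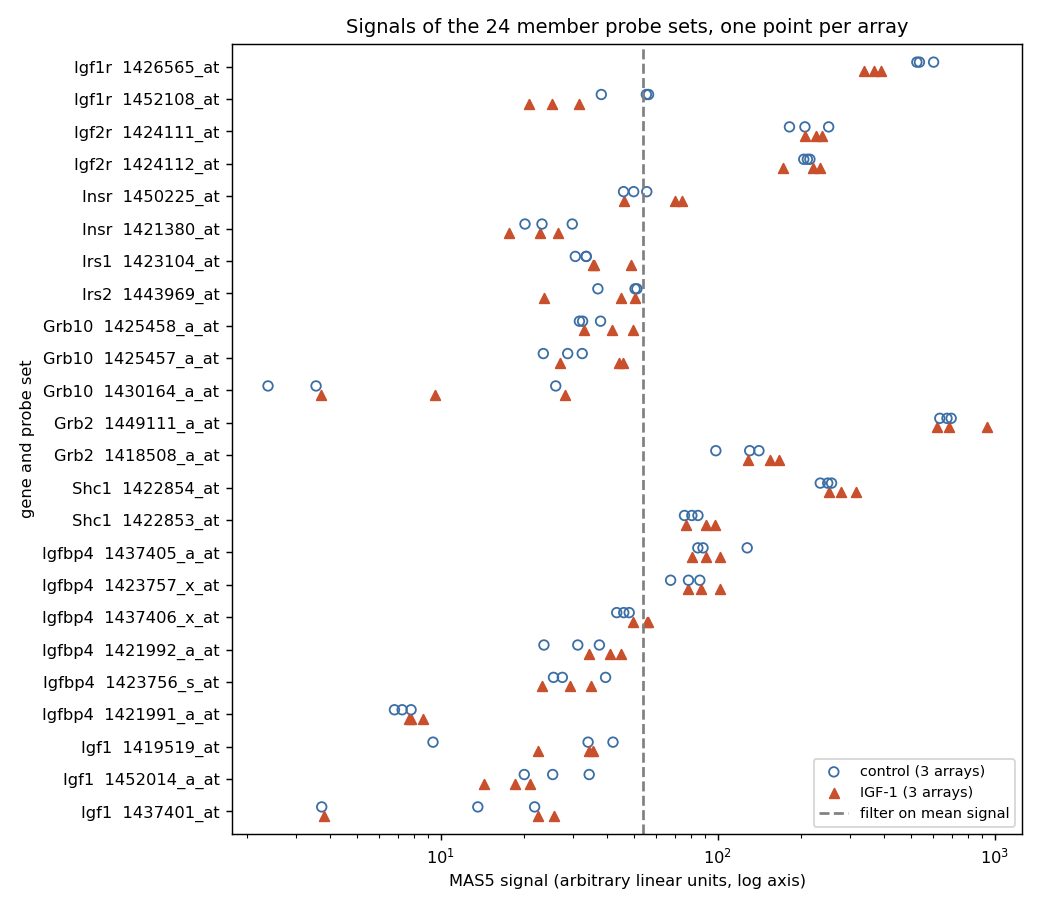
MAS5 signal (log axis, arbitrary linear units) of each of the 24 member probe sets on each array; circles are the 3 control arrays, triangles the 3 IGF-1 arrays, and the dashed line is the filter at 53.61. Both Igf1r probe sets have all IGF-1 arrays to the left of all control arrays, while most others overlap.

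The brighter Igf1r probe set, 1426565_at, gave signals of 602, 524 and 535 on control arrays 1 to 3 and of 367, 390 and 336 on IGF-1 arrays 1 to 3. Every treated array lay below every control array, with a gap wider than the range inside either group. The means were 553 ± 42.3 and 364 ± 26.9 (SD, n = 3). The log2 difference was -0.58 ± 0.10 (SE; 95% confidence interval -0.81 to -0.36; limma adjusted p = 0.005). With each array left out in turn the adjusted p was 0.013 to 0.0222, and with scaling to the hybridization controls the difference was -0.25 with an adjusted p of 0.181.

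A dimmer probe set, 1452108_at, also measures Igf1r and was derived from the same source sequence, so it is no independent sample. Its signals were 55.3, 56.3 and 38.0 on control arrays and 25.1, 20.9 and 31.5 on IGF-1 arrays. The groups again did not overlap. It lay below the filter, and the fit without a filter gave -0.65 ± 0.19 (interval -1.09 to -0.22) with a limma adjusted p of 0.11. In that fit 4.18% of probe sets passed, among the members only the brighter Igf1r probe set. The direction was the same in both Igf1r probe sets. The ratio of raw control to IGF-1 means was 1.52 for the brighter and 1.93 for the dimmer, and the size of the latter moved with the pseudocount, from -0.92 with 1 to -0.39 with 50.

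**Figure D2:**
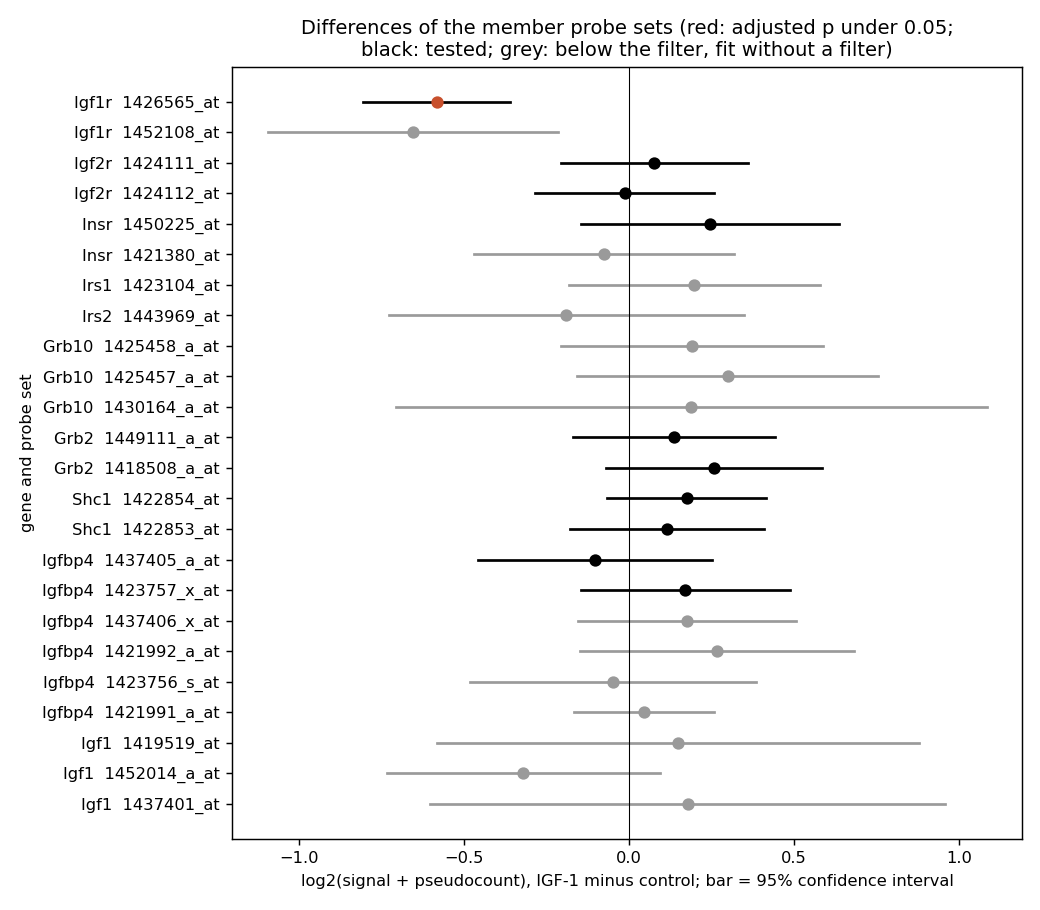
Difference of each member probe set, IGF-1 minus control, on the log2(signal + pseudocount) scale, with 95% confidence intervals; red marks an adjusted p under 0.05, black the other tested probe sets and grey those below the filter. The intervals of both Igf1r probe sets lie below 0 (-0.81 to -0.36 and -1.09 to -0.22), and all others include 0.

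The other receptors did not pass. Igf2r encodes the cation-independent mannose 6-phosphate receptor, which binds IGF-2 and carries it to lysosomes and has no kinase of its own. Its probe set 1424111_at read 206, 252 and 182 on control arrays and 227, 238 and 206 on IGF-1 arrays. The groups overlapped, and the difference was 0.08 ± 0.13 (limma adjusted p = 0.74). The other probe set, 1424112_at, differed by -0.01 ± 0.12 (adjusted p = 0.95), and control arrays spread little around their mean of 210.1 ± 5.41. The 95% intervals were -0.21 to 0.36 and -0.29 to 0.26, so a fall of Igf2r as large as the estimate for Igf1r lay outside both.

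Insr, whose product binds insulin and pairs with IGF-1 receptor chains in hybrid receptors, was close to the filter. Probe set 1450225_at read 55.5, 49.7 and 45.7 on control arrays and 46.0, 74.5 and 70.1 on IGF-1 arrays. IGF-1 arrays 2 and 3 were above all controls and IGF-1 array 1 was among them. The difference was 0.25 ± 0.18 (interval -0.14 to 0.64, limma adjusted p = 0.39). The second Insr probe set, 1421380_at, was below the filter at 17.6 to 29.9 and had a difference of -0.08 ± 0.17, with the opposite sign.

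Irs1 and Irs2 encode the docking proteins and were each measured by 1 probe set below the filter. Irs1 read 33.5, 30.6 and 33.5 on control arrays and 35.6, 35.6 and 48.6 on IGF-1 arrays. The groups did not overlap, and the fit without a filter gave 0.20 ± 0.16 (limma adjusted p = 0.6), or 0.09 without IGF-1 array 3. Irs2 read 50.3, 51.1 and 37.0 on control arrays and 44.8, 50.3 and 23.5 on IGF-1 arrays. Array 3 was the lowest of each group and the groups overlapped (-0.19 ± 0.23, adjusted p = 0.74). The intervals, -0.18 to 0.58 and -0.73 to 0.35, are wide, so at these signals a moderate change of either transcript was not detectable.

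Among the adaptors, Grb2 encodes the SH2 and SH3 protein that brings the RAS activator SOS to phosphorylated receptors, SHC1 or IRS proteins. Its brighter probe set, 1449111_a_at, read 696, 633 and 672 on control arrays and 619, 682 and 934 on IGF-1 arrays. Only IGF-1 array 3 stood above the controls, and IGF-1 array 1 was below all of them. The difference was 0.14 ± 0.14 (limma adjusted p = 0.56), and without IGF-1 array 3 it was -0.04. The dimmer probe set, 1418508_a_at, differed by 0.26 ± 0.15 (interval -0.07 to 0.58, adjusted p = 0.27).

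Shc1 encodes the adaptor that links receptors to GRB2. Probe set 1422854_at read 235, 250 and 258 on control arrays and 253, 278 and 315 on IGF-1 arrays. IGF-1 arrays 2 and 3 exceeded every control, but IGF-1 array 1 did not, and the difference was 0.17 ± 0.11 (interval -0.07 to 0.42, limma adjusted p = 0.32). The dimmer Shc1 probe set, 1422853_at, differed by 0.11 ± 0.13 (adjusted p = 0.61). The estimates of all 4 Grb2 and Shc1 probe sets were above 0, and all 4 intervals included 0.

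Grb10, an adaptor that binds activated insulin and IGF-1 receptors and restrains their signalling, had 3 probe sets, all below the filter. The brightest, 1425458_a_at, read 32.5, 31.7 and 37.8 on control arrays and 33.0, 49.4 and 41.5 on IGF-1 arrays. The groups overlapped. The 3 differences were 0.19, 0.30 and 0.19, with limma adjusted p of 0.63, 0.49 and 0.86 in the fit without a filter. The dimmest ran from 2.38 to 28.1 with a wide spread inside both groups and holds little information.

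Igfbp4 encodes a secreted protein that binds IGFs and keeps them from the receptor. It had 6 probe sets, more than any other member, and 2 were tested. Probe set 1437405_a_at read 84.8, 88.5 and 128 on control arrays and 81.0, 102 and 90.8 on IGF-1 arrays, with a difference of -0.10 ± 0.16 (limma adjusted p = 0.71). The groups overlapped, and control array 3 was the highest of all. Probe set 1423757_x_at, whose suffix marks oligonucleotides that may bind other transcripts, differed by 0.17 ± 0.14 (adjusted p = 0.47). The 4 dimmer probe sets had differences from -0.05 to 0.27, and 1 of them, 1437406_x_at, did not overlap between groups (43.2 to 47.9 against 49.4 to 55.9; 0.18 ± 0.14, adjusted p = 0.59). The tested probe sets of this gene disagreed in sign.

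Igf1, the ligand itself, was dim on all 3 of its probe sets, all below the filter. The brightest, 1419519_at, read 9.38, 34.1 and 41.9 on control arrays and 22.4, 34.2 and 35.5 on IGF-1 arrays. The low control array made the spread of that group large, and the groups overlapped. The differences were 0.15, -0.32 and 0.18, with limma adjusted p of 0.87, 0.40 and 0.85. The IGF-1 added to the medium is a protein, which an RNA array does not register.

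Over all 24 probe sets the signals of the groups did not overlap for 4, 2 of Igf1r and 1 each of Irs1 and Igfbp4, whereas this was so for 24.1% of all probe sets. Among the 10 tested it was so for 1, the brighter of Igf1r, beside 34.8% of all tested probe sets. Neither count of members was above that background.

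Ratios of raw signals inside an array do not depend on how arrays were scaled. The log2 ratio of Igf1r (1426565_at) to each of the 9 other tested member probe sets was therefore taken, a description added with the values known and given with no test. All 9 ratios share the same Igf1r signals and do not count as repeated evidence. Against Igf2r (1424111_at) the ratio ran from 1.06 to 1.56 on control arrays and from 0.69 to 0.71 on IGF-1 arrays. Against Insr (1450225_at) it ran from 3.40 to 3.55 and from 2.26 to 3.00. The mean shifts over the 9 lay between -0.91 and -0.49, and the groups overlapped for Igfbp4 1437405_a_at alone. Igf1r by itself did not overlap between the groups, so its ratio to many little-changed probe sets would separate too. The share over all tested probe sets was not taken, and the ratios say nothing further about the other members.

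The size of every difference depends on how arrays are put on a common scale. The spiked hybridization controls, bacterial and phage transcripts added in fixed amount, had geometric mean signals of 300.2 to 374.5 on control arrays and 256.1 to 271.5 on IGF-1 arrays. Scaling to them raised the median difference of all tested probe sets by 0.31, so that 94.7% of calls were higher instead of 45.2%. On that scale Igf1r differed by -0.25 ± 0.15 (limma adjusted p = 0.181), which was 0.55 below the median of all probe sets, and the other 9 tested member probe sets were all above 0. Of these, both Grb2 probe sets, Shc1 1422854_at and Igf2r 1424111_at passed as higher (0.56, 0.47, 0.50 and 0.39), where 31.6% of all tested probe sets passed as higher. The Igf1r difference was below 0 on both scales and passed on the deposited one.

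**Figure D3:**
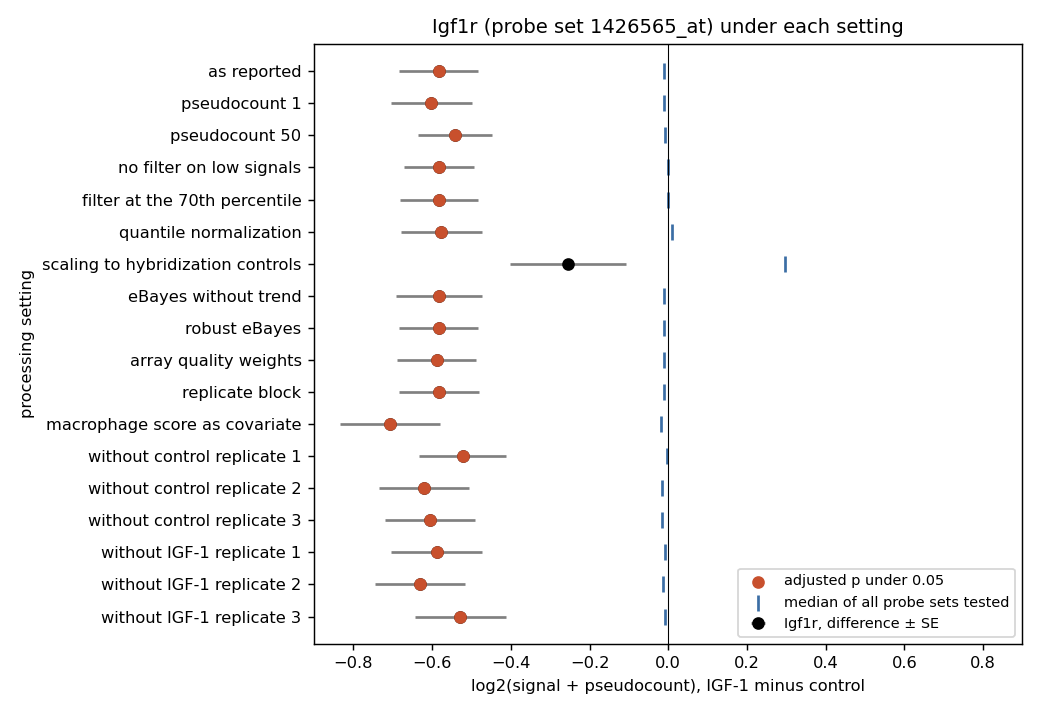
Difference of Igf1r (1426565_at), IGF-1 minus control on the log2(signal + pseudocount) scale, with its SE, under each processing setting; red marks an adjusted p under 0.05 and blue ticks the median of all probe sets tested. Igf1r lies left of the median in every setting, and with scaling to the hybridization controls (-0.25) both move to the right.

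By correlation over the 6 arrays, the genes whose log2 signals were most like those of Igf1r were Tubgcp3 (Pearson r 0.997), Tulp3 (0.995), Sspn (0.993), Bach1 (0.991) and Jmy (0.991). The arrays share their group and scaling, so a lowered gene whose signals split the groups as cleanly scores high, whatever the size of its fall. Tulp3 went from a mean of 336 to 201 and Jmy from 160.4 to 87.9. Of the 5, Tubgcp3 did not pass the test (-0.36, limma adjusted p = 0.077), and the others passed with differences from -0.76 to -0.48.

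The wider pathway was read from lists of 117 further genes, of which 95 were on the array under a single symbol and 62 had a tested probe set. Of these, 4 were higher, 7 were lower and 51 did not pass, with a median of -0.03 beside -0.01 for all genes. Among all 6895 genes tested, 7.05% were higher and 8.05% lower, so the pathway as a whole had a share of calls near that of genes at large. Leaving out an array altered these counts. Without control array 3 or IGF-1 array 2, 2 were higher. Without control array 1 or 2, 4 were lower, without control array 3, 3 were lower, and without IGF-1 array 2 or 3, 2 were lower. All 7 falls lost significance with scaling to the hybridization controls. With no filter 2 were lower, and with the macrophage marker score in the model (the list is given with the cell type markers) 1 was higher and 2 were lower. Of the genes named below as called, Stc2 and Sos2 kept their calls with that score.

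Among ligands, binding proteins, further adaptors and receptor regulators, 1 of 18 tested genes was higher and 2 were lower, with a median of 0.01. Stc2, which encodes a secreted glycoprotein that inhibits the protease PAPPA and so limits the release of IGFs from binding proteins, rose from 131 ± 8.19 to 263 ± 15.5 (0.93 ± 0.10, limma adjusted p = 0.00062). PAPPA is the protease that cuts IGFBP4, the binding protein followed above. The transcript of Pappa itself was below the filter, at 4.81 to 20.8 on control arrays and 3.79 to 17.0 on IGF-1 arrays. A link between Stc2 and Igfbp4 in these samples was not tested. Crk, an SH2 adaptor, fell by 0.48 on its brightest probe set (limma adjusted p = 0.1 with the macrophage score). Of its 3 tested probe sets, 2 passed and 2 were below 0. Cbl, a ubiquitin ligase for activated receptors, fell by 0.65 on its brightest probe set. That call was lost without control array 3 or IGF-1 array 2 or 3 (highest limma adjusted p 0.0646). Of the 2 tested Cbl probe sets, 1 passed and 2 were below 0. Of the brightest that did not pass, Ptpn2 differed by -0.44, Nedd4 by -0.04 and Mdm2 by -0.27.

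In the PI3 kinase, AKT and mTOR branch, 3 of 30 tested genes were higher, 1 was lower and 26 did not pass, with a median of 0.03. Trib3, which encodes a pseudokinase that binds AKT, rose from 151 ± 22.8 to 259 ± 46.2 (0.72 ± 0.15, limma adjusted p = 0.012, and 0.102 with the macrophage score). Akt1, a central kinase of the branch, rose by 0.43 ± 0.10. Its difference was 0.37 to 0.44 without control array 3, IGF-1 array 1 or IGF-1 array 2, where the call was lost (highest adjusted p 0.0561). Sesn2, an inhibitor of mTORC1, rose by 0.36 and lost its call whichever of the 6 arrays was left out (highest adjusted p 0.133). Foxo1, a transcription factor that AKT inactivates, fell by 0.47, a call that was lost with each array left out except IGF-1 array 1 (highest adjusted p 0.138). These values are of the brightest probe set of each gene. For Trib3 and for Sesn2, 1 of 2 tested probe sets passed and 2 were above 0. For Foxo1, 1 of 3 passed and 3 were below 0. Eif4ebp1, Ddit4 and Rheb, the brightest of the rest, differed by 0.17, 0.11 and 0.04.

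In the RAS and ERK branch, 0 of 14 tested genes were higher, 4 were lower and 10 did not pass, and the median was -0.13. Among all genes tested, 7.05% were higher and 8.05% lower. With 1 array left out, 1 to 3 genes of the branch were lower. With scaling to the hybridization controls 0 were lower and 3 higher. Sos2, which encodes an exchange factor that GRB2 brings to the membrane, fell from 262 ± 7.47 to 177 ± 29.8 (-0.54 ± 0.12, limma adjusted p = 0.017), a call lost without IGF-1 array 2 or 3 (highest adjusted p 0.0664). Rasa1, which switches RAS off, fell by 0.32 and also lost its call whichever of the 6 arrays was left out (highest adjusted p 0.156). Of its 2 tested probe sets, 1 passed and 2 were below 0. The feedback inhibitors Dusp6 and Spry1 fell by 0.77 and 0.48. Dusp6 lost its call without control array 2 or 3 and Spry1 without each array other than control 3 (highest adjusted p 0.0628 and 0.0622). Map2k1, Nras and Map2k2 did not pass, at -0.05, 0.23 and 0.25.

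**Figure D4:**
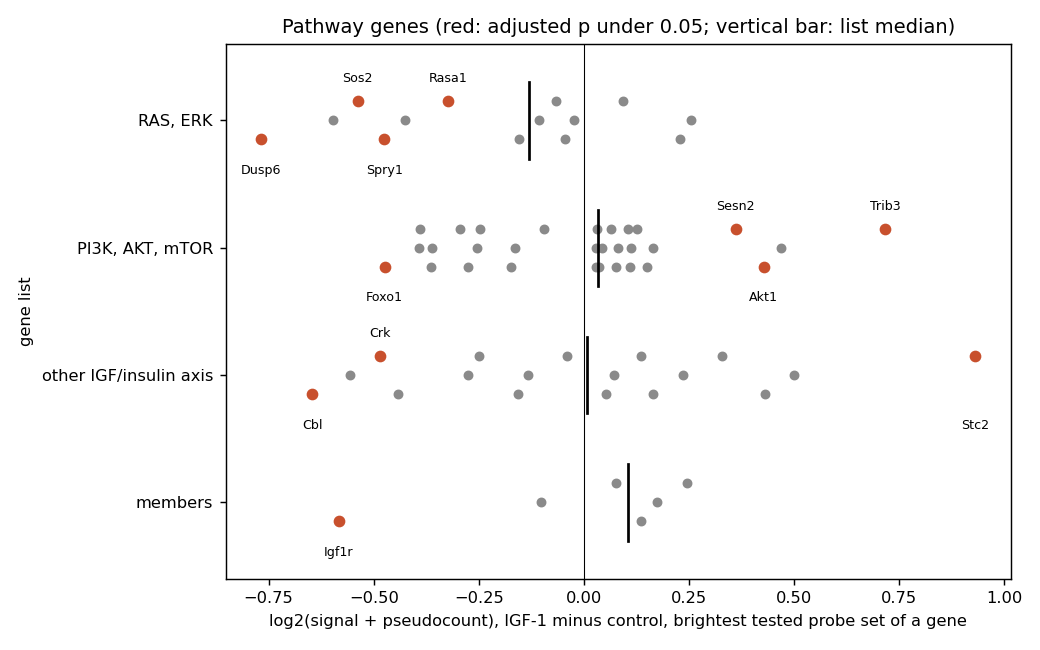
Difference of each tested gene, IGF-1 minus control on the log2(signal + pseudocount) scale, for the members and the 3 pathway lists, each gene by its brightest tested probe set; red marks an adjusted p under 0.05 and black bars the list medians. Called genes stand on both sides of 0 in the PI3 kinase list and in the list of other axis genes, and on the lower side alone among the members and in the RAS and ERK list.

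Of the listed plasma cell markers, Jchain, Xbp1 and Cd79b were bright in all 6 samples, while Cd79a was below the filter (mean 39.3). Of the 9 tested, 2 were lower (Tnfrsf17 by -0.51 and Slamf7 by -0.62) and 0 higher. On the deposited scale the summed signal of 10 plasma cell markers was 12727 to 13764 on control arrays and 11971 to 12401 on IGF-1 arrays. Every IGF-1 array was below every control array, in the same direction as Igf1r, and the part of this in the Igf1r result was not tested. Groups did not overlap for 34.8% of all tested probe sets. The largest terms, Xbp1 (means 4953 and 4317) and Jchain (4443 and 4311), did not pass (limma adjusted p = 0.16 and 0.76, brightest probe sets). The sum was not taken on the scale of the hybridization controls, whose signals were lower on IGF-1 arrays. Transcripts of myeloid cells were bright too, with mean signals over all arrays of 6872 for S100a9, 5705 for Ngp and 3828 for Lyz2. The summed signal of 12 macrophage and monocyte markers was 9251 to 12054 on control arrays and 7568 to 10121 on IGF-1 arrays, and 0 values were at 0. Of 9 tested, Lyz1, Csf1r, Cd14 and Itgam were lower, Cd68 was higher and 4 did not pass, Lyz2, Adgre1 and C1qb among them. Of the 3 tested Csf1r probe sets, 1 passed and 2 were below 0. Of 12 tested neutrophil markers, Ltf, Mmp8, Mmp9 and Cxcr2 were lower, and S100a9, Ngp and S100a8 did not pass (sums of 26480 to 31922 and of 24206 to 27188). Among all genes tested, 8.05% were lower and 7.05% higher. By sign, 11 neutrophil, 8 macrophage and 6 plasma cell markers tested were lower, and 1, 1 and 3 were higher. The medians of these lists were -0.29, -0.43 and -0.17, beside -0.01 for all genes. Of the 2 tested Mmp9 probe sets, 1 passed and 2 were below 0. With a score of the macrophage markers in the model, Igf1r differed by -0.71 ± 0.13 (limma adjusted p = 0.013). A score of the neutrophil markers was not put in the model. In bulk samples fewer cells of a type and less RNA per cell cannot be told apart. Most markers of stroma (8 of 10 on the array), endothelium (7 of 8) and T and NK cells (7 of 8) and 3 of 5 of erythroid cells were below the filter. The tested markers of those lists, Lepr, Col1a2, Kdr, Nkg7, Tfrc and Alas2, did not pass. Log2 signals of arrays correlated at 0.978 to 0.984 inside a group and at 0.956 to 0.965 across groups.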

How the data were processed

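RNA of 6 samples was hybridised to 1-colour Affymetrix arrays. The authors deposited linear intensities, 1 per probe set and array, which the submitters' processing notes credit to MAS5 and GCOS. Program versions and scaling target: not given in the sources used here. All arrays shared a mean of 150.1 after trimming 2% at each end. The table held 22690 probe sets, 64 of them controls. Symbols came from the platform annotation (20380 probe sets with 1 symbol; 691 with several named no gene).

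Signals were transformed as log2(signal + 15.57), where 15.57 is the 25th percentile. Probe sets with a mean signal above 53.61 were tested (11313) with limma 3.58.1 in R 4.3.3 (eBayes with intensity trend, two-sided, Benjamini-Hochberg, threshold 0.05). Every adjusted p is from limma. Dimmer probe sets were fitted with the filter removed. A list gene was its brightest tested probe set. Named were all member probe sets, list genes past the threshold, the 3 brightest of the rest, and the 5 genes most correlated with Igf1r. The members and lists were chosen with earlier results of these data known. In 20 simulated data sets of 11313 probe sets, 200 were changed in each, and 43.6% of changes of 0.5 and 98.4% of changes of 1 (log2) were called. In the data 15.1% of tested probe sets passed, so the adjustment acts differently there and these shares may not carry over. Alternatives covered the pseudocount, filter, scaling, array weights, eBayes settings, probe sets marked as cross-hybridizing, the replicate number as a block, a macrophage marker score and each array left out.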

Additional observations from a re-analysis of the deposited data

How the results depend on the processing

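The fall of Igf1r kept its direction in 17 alternatives and passed in 16 of them. It did not pass with scaling to the hybridization controls (-0.25 ± 0.15, limma adjusted p = 0.181). On that scale 4 member probe sets passed as higher and 0 as lower, and 18 pathway genes passed as higher and 0 as lower. Of all tested probe sets 31.6% passed as higher there, so these counts are not read as results about the members or the pathway. With 1 array left out, the Igf1r difference lay between -0.63 and -0.52, and 1 member probe set passed as lower and 0 as higher each time. Of 24 member probe sets, 19 kept their call or lack of one under every alternative run on them, and the 5 exceptions all came from that scaling. For 10 of the 24, none of them called on the deposited scale, the sign turned under at least 1 alternative. Among pathway genes, 2 passed as lower with no filter on low signals. With quantile normalization 7 passed as higher and 5 as lower, and with the mean of the tested probe sets of a gene 7 passed as higher and 10 as lower, against 4 and 7 as reported. With the macrophage score as a covariate, 1 passed as higher and 2 as lower. Leaving out 1 array gave 2 to 4 as higher and 2 to 7 as lower. The cause of these changes was not tested. Replicate numbers are shared between the groups. Deviations of same-numbered arrays correlated at 0.12, -0.03 and 0.13, and those of differently numbered arrays at -0.15 to 0.03. These values and the labels do not settle whether the arrays are paired, and the main fit took no pairs. With the replicate block, Igf1r differed by -0.58 (adjusted p = 0.00832), 1732 probe sets passed against 1709 without it, and no member's call altered. Signal over background limits Irs1, Irs2, Grb10 and Igf1, whose probe sets all lay below the filter.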
